A study of Mus musculus with 9 samples.

Results

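The 76 genes whose symbols begin with Mrpl or Mrps and a number, which name proteins of the large and the small subunit of the mitochondrial ribosome, were followed in Reissner's membrane of the mouse. They were taken from 18193 genes with a probe set of a single symbol on the array, and each was read through 1 probe set, the one whose log2 signal averaged highest over the 9 arrays. All 76 passed the working floor (200 signal units in 3 arrays or more) and were tested, beside 10228 tested genes in all. For 2 members, Mrpl1 and Mrpl37, the 3 fresh arrays lay under that floor, so both were tested through the other groups alone. Mrpl30 and Mrpl53 had only probe sets shared by several genes and were not used.

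Reissner's membrane is the thin sheet of an epithelial and a mesothelial cell layer that bounds the endolymph of the cochlea. Membranes of adult mice were dissected free-hand. The fresh group went straight to RNA extraction, the incubated group was kept as explants for 24 h without drug, and the dexamethasone group was kept for 24 h with dexamethasone, a synthetic glucocorticoid. The design text and the label of array A give its dose as 100 nM, while arrays B and C are labelled 100 mM. Each group has 3 arrays, and strain and sex are not stated in the labels used here. Tissue was pooled and each pooled sample was put on 3 chips, so the p-values measure only the spread between these arrays, which may be technical. In pooled tissue, fewer cells of a type and less RNA per cell cannot be told apart.

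Mitochondria keep their own ribosome, which translates the few messages of the mitochondrial genome, all of them for subunits of the respiratory chain and ATP synthase. Its RNAs come from mitochondrial DNA, but every protein of it is encoded in the nucleus, made in the cytosol and imported. Some of these proteins descend from those of the bacterial ribosome, and others were added in the course of mitochondrial evolution. The small subunit reads the message, and the large subunit joins amino acids and feeds the chain to the inner membrane. The members held 49 genes of the large subunit (Mrps30 and Mrps18a among them despite their symbols), 26 of the small subunit, and Mrps36, whose product is now placed in the oxoglutarate dehydrogenase complex.

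Promoter sequence of the members was described beside that of other tested genes, and its part in their changes was not tested. RefSeq windows of 300 bases (GRCm38.p6, 250 bases before to 50 after a start) were matched for 67 of the 76 members and for 8324 tested genes, and a gene was counted if any of its windows held a motif on either strand. The 67 members had 73 windows and the 8324 genes 10762, so members had fewer windows per gene in which to hold a motif. The shares below were not adjusted for this. The site of ETS factors such as GABP (NRF2), spelled CCGGAAG, was in 25 of the 67 members (37.3%) and in 20.6% of all the genes. The core of the site of NRF1, spelled GCGCATGCG, a regulator of nuclear genes for mitochondria, was in 7 members (10.4%) and in 4.29% of the genes. The YY1 motif, spelled AAGATGGCG, was in 8 members (11.9%) and in 3.82%. At least 1 of these 3 motifs was in 35 members (52.2%), against 26.6% of the genes. In the other direction, the GC box GGGCGG was in 50.7% of members and 71.1% of genes, and the E-box CACGTG in 7.46% and 12.1%. Shares lay closer for the cyclic AMP element TGACGTCA (2.99% and 3.68%), the CCAAT box CCAAT (38.8% and 42.6%) and the TATA box TATAAA (7.46% and 8.75%). The letters searched for the ETS and GC box motifs do not contain one another, and the NRF1 letters overlap their own reverse complement by all but 1 base. A match is a description of letters and not a bound site.

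**Figure D1:**
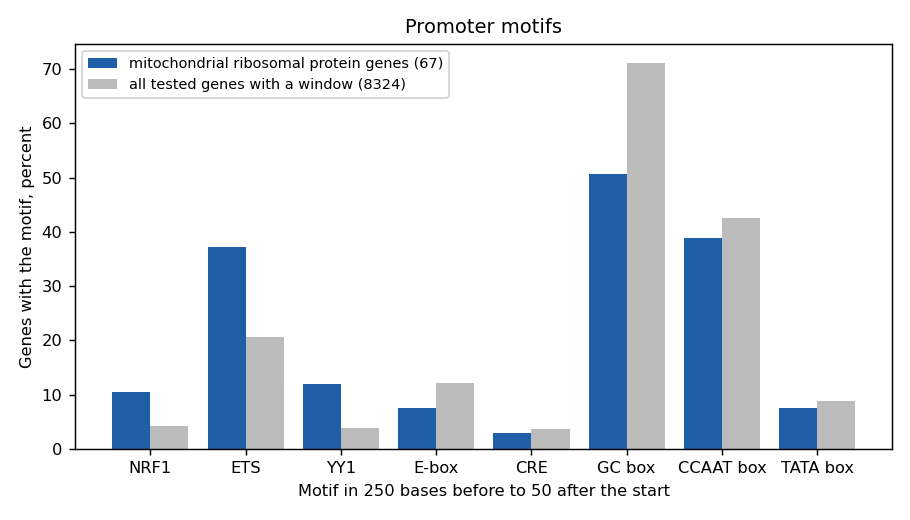
Share of genes (percent, from 0) with each of 8 motifs in the 300-base promoter windows, for the 67 matched mitochondrial ribosomal protein genes (blue) and the 8324 matched tested genes (grey). The NRF1, ETS and YY1 bars are taller for the mitochondrial ribosomal genes, 37.3% against 20.6% for ETS, and the GC box bar is shorter, 50.7% against 71.1%.

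The 60 bases just before the start are shown for 7 genes: those with a single matched window and an ETS or NRF1 motif there that were among the largest rises or falls of a comparison, or had probe sets that moved in opposite directions. They run 5′ to 3′ on the gene's strand, end at the base before the start, and have the motif in capitals. They lie at chr9:98601680-98601739 (minus strand) for Mrps22, chr14:54426849-54426908 (plus) for Mrpl52, chr9:105053208-105053267 (plus) for Mrpl3, chr11:94653731-94653790 (plus) for Mrpl27, chr8:71464866-71464925 (plus) for Mrpl34, chr11:115403692-115403751 (plus) for Mrpl58 and chr3:94443276-94443335 (plus) for Mrpl9.
Mrps22: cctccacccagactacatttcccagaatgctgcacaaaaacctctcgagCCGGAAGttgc
Mrpl52: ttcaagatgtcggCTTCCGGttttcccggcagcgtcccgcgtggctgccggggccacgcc
Mrpl3: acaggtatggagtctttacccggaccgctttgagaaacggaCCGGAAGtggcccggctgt
Mrpl27: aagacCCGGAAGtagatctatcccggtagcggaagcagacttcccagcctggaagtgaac
Mrpl34: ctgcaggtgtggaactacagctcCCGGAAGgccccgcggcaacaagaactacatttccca
Mrpl58: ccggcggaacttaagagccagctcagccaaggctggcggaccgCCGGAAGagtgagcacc
Mrpl9: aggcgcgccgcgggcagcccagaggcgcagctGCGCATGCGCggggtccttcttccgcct
The ETS letters began 11 bases before the start of Mrps22, 19 before that of Mrpl3 and 17 before that of Mrpl58, and the opposite strand carried them in Mrpl52. Mrpl9 alone of the 7 held the NRF1 letters, 28 bases before its start and on both strands.

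By motif, the median log2 change on incubation was 0.55 for the 25 members with the ETS letters and 0.52 for the 42 without. It was 0.72 for the 7 with the NRF1 letters and 0.52 for the 60 without, and 0.66 for the 8 with the YY1 letters and 0.51 for the 59 without. With dexamethasone against incubation, 14 of the 25 members with the ETS letters were lower (median -0.19) and 19 of the 42 without (-0.17). For the NRF1 letters 5 of 7 were lower (-0.22) and 28 of 60 without (-0.17), and for the YY1 letters 2 of 8 (-0.07) and 31 of 59 without (-0.18). These are descriptions with no test.

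The 9 arrays fell clearly by group. Across tested probe sets, Pearson's r between arrays was 0.992 to 0.993 within a group, 0.837 to 0.838 between fresh and incubated arrays, and 0.956 to 0.959 between incubated and dexamethasone arrays. The tissue changed in other ways over the 24 h. On incubation 8 of the 10 tested epithelial markers were higher and 2 were lower. Summed signal of all 11 rose from 34998 to 36479 in fresh to 79198 to 81733 in incubated and 92316 to 96239 in dexamethasone arrays. That of 10 neuron markers went from 24866 to 26044 down to 438 to 538 and 441 to 558, all 10 lower on incubation. For 8 fibrocyte markers of the spiral ligament and limbus the sums were 63370 to 65573, 4624 to 4968 and 5331 to 5455, again with all 8 lower on incubation. The ratio of 3′ to 5′ signal of Gapdh, a measure of RNA integrity and amplification length, was 6.91 to 7.53 in fresh, 3.46 to 3.88 in incubated and 5.02 to 5.47 in dexamethasone arrays. For actin it was 3.97 to 4.26, 1.86 to 1.96 and 1.79 to 1.96. Of the other lists, 6 of 10 macrophage markers were higher on incubation and 1 lower, and 6 of 10 tested mesothelial and fibroblast markers were lower and 3 higher. Lower were also 6 of 6 strial marginal, 5 of 5 supporting, 3 of 3 hair cell, 2 of 3 Schwann cell, 2 of 2 endothelial, 2 of 2 erythroid and 3 of 3 striated muscle markers. The remaining Schwann cell marker, Mbp, was higher. With dexamethasone against incubation, 7 of 10 epithelial markers were higher and 1 lower. Of 8 fibrocyte markers 5 were higher and 2 lower, and 5 of 5 supporting cell markers were higher. Of 10 mesothelial and fibroblast markers 5 were lower and 2 higher, and 3 of 6 strial marginal and 2 of 2 erythroid markers were lower. Of 10 macrophage markers 4 were higher and 1 lower. Higher were also 2 of 3 Schwann cell, 2 of 3 hair cell and 1 of 2 endothelial markers. Of 10 neuron markers 1 was higher and 1 lower, and no striated muscle marker was called. When arrays were scaled on the hybridization controls, described below, the epithelial list turned to 1 higher and 6 lower, and 4 of 8 fibrocyte and 3 of 5 supporting cell markers were higher. The part of this shift in cell makeup and of the 3′ to 5′ ratios in the results below was not tested.

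The first comparison asked what 24 h as an explant did to the mitochondrial ribosomal genes. They rose nearly as a body: 66 of 76 were higher after incubation, 3 were lower and 7 did not pass the test (limma, Benjamini-Hochberg adjusted p under 0.05). That is 86.8% of members called higher, beside 36.1% of all tested genes, and 3.95% called lower, beside 40.7%. The median log2 change of the members was 0.54, with quartiles of 0.32 and 0.77, whereas over all tested genes the median was -0.04. Changes were differences of the mean log2 of signal plus 32, and folds are on that scale. Most rises were modest, since 11 members moved by more than 2-fold. The arrays of the 2 groups did not overlap for 64 of the 66 that rose and for the 3 that fell. Over all tested genes, 35.1% rose and 39.6% fell without overlap, which is 97.4% and 97.3% of the genes called in each direction.

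The shift was present on each array. Against the mean of the fresh arrays, the median member stood at 0.57, 0.55 and 0.47 on incubated arrays A, B and C, and at 0.44, 0.41 and 0.46 on the dexamethasone arrays. The median of all tested genes on the same arrays lay between -0.08 and -0.04. The fresh arrays themselves spread from -0.01 to 0.02 for the members.

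**Figure D2:**
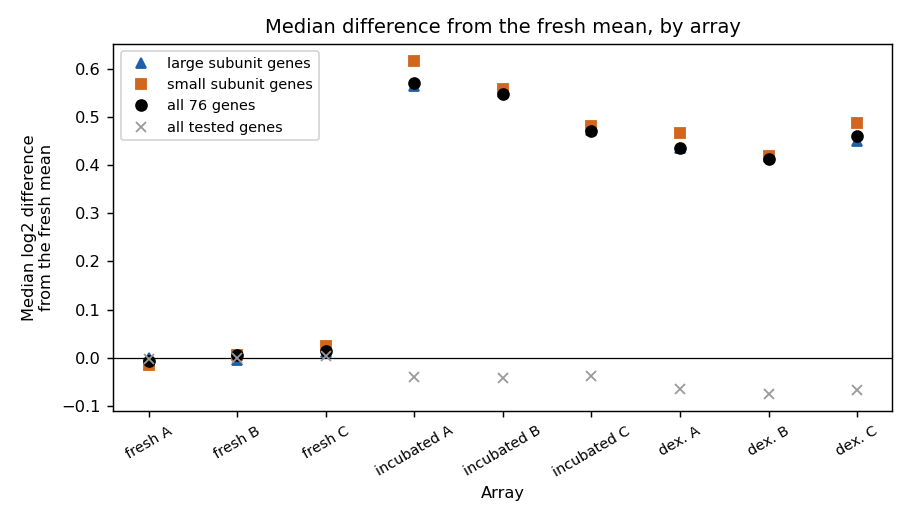
Median log2 difference from the fresh mean on each of the 9 arrays, for all 76 mitochondrial ribosomal protein genes (circles), those of the large (triangles) and small (squares) subunit, and all tested genes (crosses). The incubated arrays sit at 0.47 to 0.57 and the dexamethasone arrays at 0.41 to 0.46 for the 76 genes, all above the fresh arrays.

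Both subunits took part. Of the 49 large subunit genes 44 rose and 2 fell, with a median of 0.55, and of the 26 small subunit genes 21 rose and 1 fell, with a median of 0.57. Among proteins inherited from bacteria 41 of 46 genes rose and 1 fell (median 0.61), and among those added in mitochondria 24 of 29 rose and 2 fell (median 0.40). The difference between these classes was not tested.

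Among small subunit genes the largest rise was that of Mrps22, which encodes a mitochondria-specific protein whose inherited loss in people impairs the respiratory chain. Its signal was 405, 418 and 422 on fresh arrays, 1489, 1656 and 1596 on incubated arrays, and 1273, 1431 and 1347 on dexamethasone arrays. All incubated and dexamethasone arrays lay above all fresh arrays. The log2 change on incubation was 1.85 ± 0.07 (SE, n = 3 per group, adjusted p = 7.66e-11), a 3.60-fold rise.

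Mrps18b is 1 of 3 versions of the bacterial protein S18 in the mammalian mitochondrial ribosome. Its signals were 785, 687 and 831 in fresh, 2227, 2121 and 2354 in incubated and 1829, 1956 and 2079 in dexamethasone arrays. The fresh arrays were again apart from the rest, and incubation raised the gene by 1.51 ± 0.08 (log2, SE, adjusted p = 1.74e-09). The other versions rose too: Mrps18c, also of the small subunit, by 0.93 ± 0.05 (mean signal 1652 to 3186) and Mrps18a, which sits in the large subunit, by 0.90 ± 0.08 (805 to 1531).

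Mrps10, the counterpart of bacterial S10 in the head of the small subunit, read 750, 869 and 851 in fresh, 2296, 2013 and 2345 in incubated and 2141, 2248 and 1928 in dexamethasone arrays. Cultured arrays of both kinds overlapped each other and stood clear of the fresh ones. Its log2 rise on incubation was 1.40 ± 0.08 (adjusted p = 5.76e-09). Mrps25, a mitochondria-specific protein of the small subunit, rose by 1.36 ± 0.11 (mean signal 587 to 1546, adjusted p = 1.50e-07). A second Mrps25 probe set also rose, by 0.30 ± 0.09.

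In the large subunit the leading gene was Mrpl57, which encodes a short mitochondria-specific protein. It read 1133, 1151 and 1219 in fresh, 2990, 3100 and 2654 in incubated and 2657, 2338 and 2657 in dexamethasone arrays. No cultured array came near the fresh level, and the log2 change on incubation was 1.29 ± 0.07 (adjusted p = 3.47e-09).

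Mrpl37 and Mrpl1 started under the floor, so their changes are bounds. Both are counted among the 66 called higher. They passed the floor only through the groups where they were higher, which favoured that call. Their p-values are therefore no added support for a rise. Mrpl37, a mitochondria-specific protein, read 140, 168 and 178 in fresh and 375, 469 and 476 in incubated arrays, a rise of at least 2.20-fold (adjusted p = 5.82e-07). Mrpl1, whose bacterial counterpart forms the stalk by which spent tRNA leaves, read 160, 114 and 127 in fresh and 352, 348 and 365 in incubated arrays, at least 1.77-fold higher (adjusted p = 7.06e-07). A second Mrpl1 probe set moved the other way, by -0.43 ± 0.11, so its direction depended on the probe set. The same caution attaches to Mrpl38 (mean signal 429 to 1051, 1.24 ± 0.09): its other tested probe set, at a fresh mean of 196, gave -0.11 ± 0.13 and was not called.

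Mrpl52, a mitochondria-specific protein of the large subunit, had the smallest SE among the rises named here. Its fresh arrays read 2842, 2710 and 2817, its incubated arrays 6398, 6159 and 6255, and its dexamethasone arrays 5962, 5874 and 5999. The 3 fresh values lay close together and below the other 6, and the log2 rise on incubation was 1.16 ± 0.04 (adjusted p = 9.04e-11). Mrpl51 (mean 6524 to 8141, 0.32 ± 0.05), Mrpl39, a relative of threonyl-tRNA synthetase (4380 to 5799, 0.40 ± 0.05), and Mrps14 (3654 to 5916, 0.68 ± 0.09) rose from already high signals. A second Mrpl39 probe set also rose (0.59 ± 0.05), while that of Mrps14 was not called (-0.21 ± 0.25). Mrps27, a pentatricopeptide repeat protein near the floor, went from 224 to 339 (0.54 ± 0.09). Signals of different probe sets do not rank transcripts, so no level was set against another.

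The 3 genes that fell on incubation were Mrps6, Mrpl44 and Mrpl49. Mrps6, the counterpart of bacterial S6, read 17630, 17591 and 19032 in fresh, 11690, 11489 and 12461 in incubated and 9715, 9089 and 9047 in dexamethasone arrays. The groups stepped down without overlap, by 0.61 ± 0.05 on the log2 scale on incubation (adjusted p = 2.30e-07) and by 0.36 ± 0.05 more with dexamethasone (adjusted p = 9.65e-05). On the hybridization controls the change on incubation was smaller, -0.26 (adjusted p = 6.48e-04). A second Mrps6 probe set gave -0.68 ± 0.08 and -0.45 ± 0.08 for the same comparisons.

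Mrpl44, which carries the fold of an RNase III, read 4877, 4668 and 5108 in fresh, 3518, 3462 and 3336 in incubated and 3056, 3075 and 2953 in dexamethasone arrays. The 3 groups did not overlap, and the change on incubation was -0.50 ± 0.05 (adjusted p = 7.81e-07), or -0.16 on the hybridization controls (adjusted p = 0.0121). Its 2 other tested probe sets were not called, at 0.04 ± 0.08 and 0.01 ± 0.06. Mrpl49 read 942, 991 and 1094 in fresh, 731, 789 and 734 in incubated and 623, 573 and 602 in dexamethasone arrays, a change of -0.41 ± 0.07 on incubation (adjusted p = 2.23e-04). On the hybridization controls the change was -0.07 and was not called. Its other probe set, with a fresh mean of 152, rose by 0.80 ± 0.13. Of the 3 falls, then, that of Mrps6 alone was seen by a second probe set. In the RefSeq annotation Mrps6 overlaps Slc5a3, Mrpl44 overlaps Wdfy1 and Mrpl49 overlaps Syvn1. In all, 19 of the 76 members overlap another protein-coding gene.

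The 7 genes that missed the threshold on incubation were Mrpl13 (0.04), Mrpl58 (0.01), Mrpl9 (0.05), Mrps12 (0.14), Mrps26 (-0.02), Mrps31 (-0.10) and Mrps9 (0.12). Both other tested probe sets of Mrpl13 were called higher (0.71 ± 0.07 and 0.365 ± 0.11). Other probe sets of Mrps9 were called higher (0.45 ± 0.11), called lower (-0.33 ± 0.11) and not called (-0.01 ± 0.11).

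**Figure D3:**
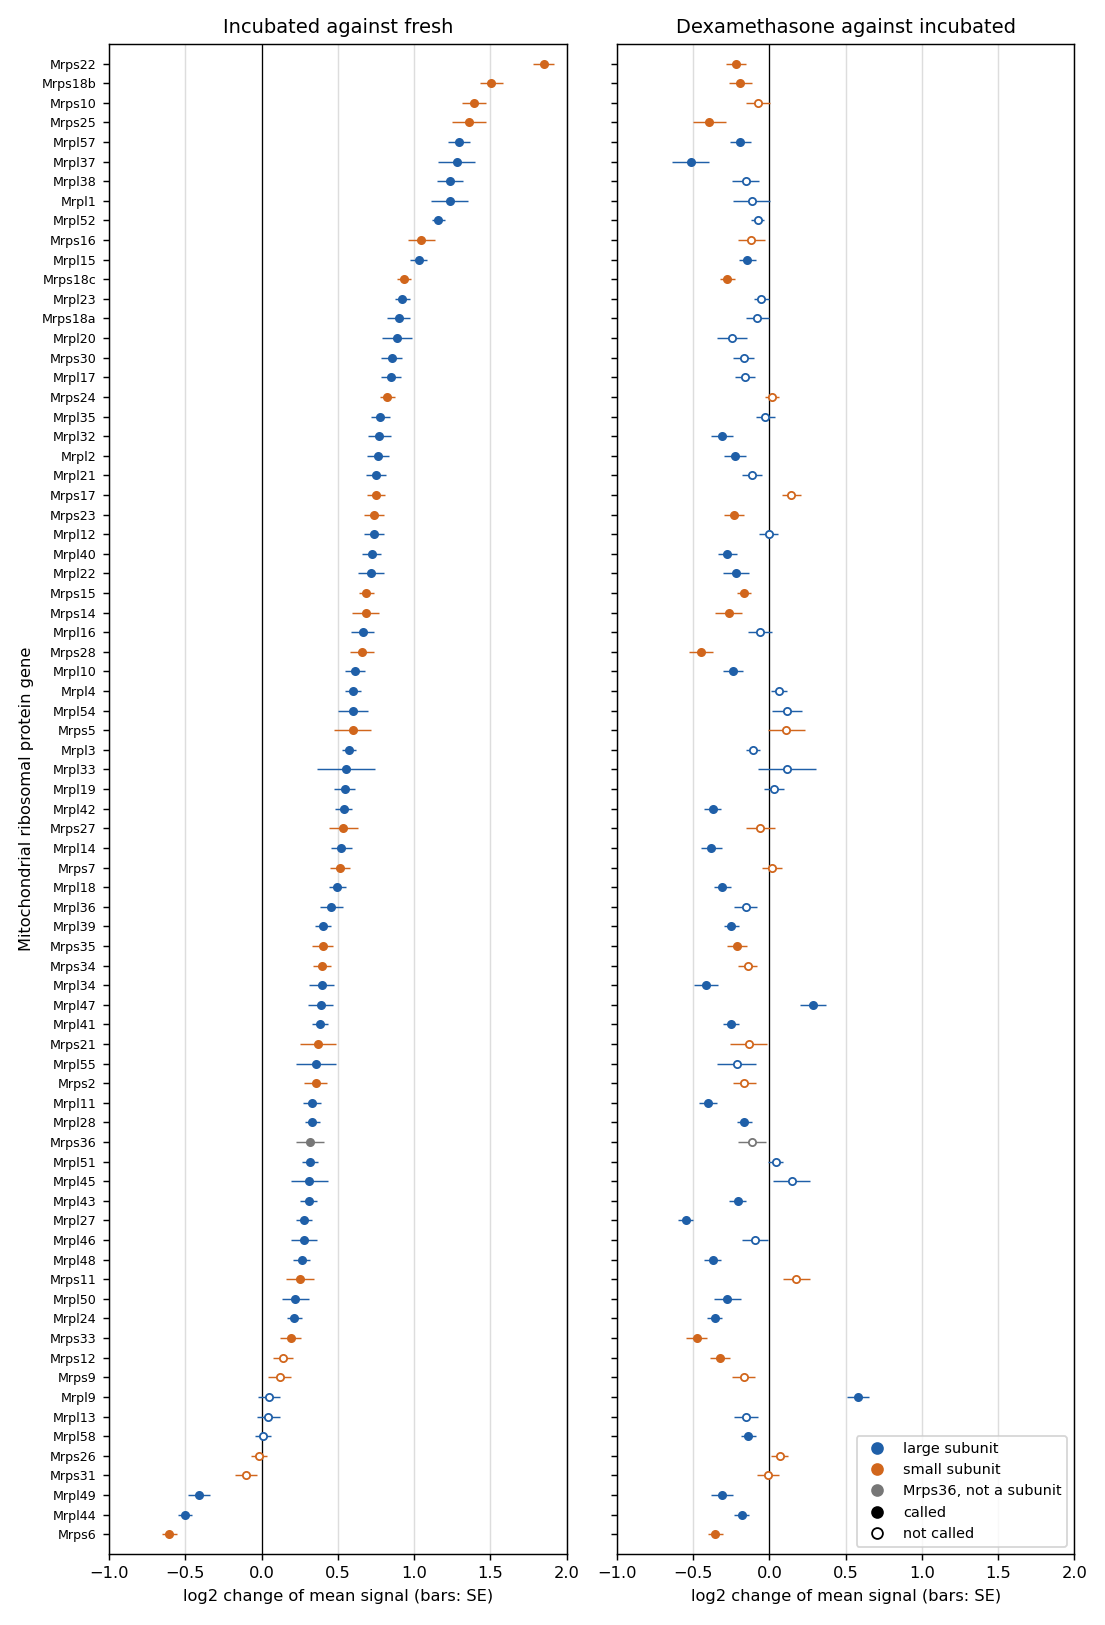
Log2 change of all 76 genes on incubation (left) and with dexamethasone against incubation alone (right), ordered by the change on incubation. Points are coloured by subunit, filled where called, and bars are SE. On the left 66 genes lie above 0 and are called and 3 below. On the right 36 are called below 0 and 2 above, of which Mrpl47 turned negative and Mrpl9 lost its call when arrays were scaled on the hybridization controls.

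Other tested probe sets of the members gave a mixed check. There were 40, and on incubation 17 moved in the same direction as the one used, 8 in the opposite direction and 15 lacked a call on 1 side or both. The 8 belonged to Mrpl1, Mrpl3, Mrpl11, Mrpl21, Mrpl41, Mrpl48, Mrpl49 and Mrps5. The widest split was that of Mrpl48, at 0.26 ± 0.06 for the probe set used and -2.44 ± 0.12 for the other. For Mrpl11, which forms the base of the stalk that binds elongation factors, the values were 0.33 ± 0.06 and -0.53 ± 0.06, and another probe set gave 0.51 ± 0.09. Where several probe sets disagree, the direction of the gene was not settled. Over the 51 members with a single tested probe set, 47 rose on incubation, none fell and 4 were not called, with a median of 0.54.

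The second comparison asked what dexamethasone added to incubation. The members' signal went part of the way back down: 36 were lower with dexamethasone, 2 were higher and 38 were not called. That is 47.4% lower, beside 28.7% of all tested genes, and 2.63% higher, beside 22.3%. The median log2 change was -0.16, and -0.03 over all tested genes. No member moved by more than 2-fold, and the median fall was well under the rise on incubation. The arrays did not overlap for 33 of the 36 genes that fell, beside 27.6% of all tested genes lower without overlap, or 96.4% of those called lower. Of the 66 genes that rose on incubation, 31 fell with dexamethasone and 34 were not called. That share lay near the 47.4% of all members that fell, and the like share over all tested genes was not counted. By the probe sets used, the 3 genes that fell on incubation fell further. The second probe set of Mrps6 also fell with dexamethasone, while the other tested probe sets of Mrpl44 and Mrpl49 were not called. Both comparisons use the incubated arrays, with opposite sign, so any error in those arrays pushes the 2 changes in opposite directions. With dexamethasone 12 of the 40 other tested probe sets moved in the same direction as the one used. The other 28 lacked a call on 1 side or both. Among the 28, another probe set was called higher for Mrpl13, Mrpl38 and Mrps9 and lower for Mrps24. Over the 51 members with a single tested probe set, 22 were lower, 1 was higher and 28 were not called.

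Dexamethasone lowered 24 of the 49 large subunit genes and 12 of the 26 small subunit genes, with medians of -0.16 and -0.17. It lowered 19 of 46 genes of bacterial origin (median -0.16) and 17 of 29 of mitochondrial origin (median -0.21).

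Mrpl27, whose bacterial counterpart reaches into the peptidyl transferase centre, had the largest fall. It read 2742, 2779 and 2672 in fresh, 3501, 3157 and 3317 in incubated and 2225, 2210 and 2346 in dexamethasone arrays. The incubated arrays were highest and the dexamethasone arrays lay under even the fresh ones. The log2 change with dexamethasone was -0.55 ± 0.05 (adjusted p = 3.14e-06), and against fresh tissue it was -0.27 ± 0.05 (adjusted p = 3.65e-04). Mrpl37 followed, from 375, 469 and 476 to 299, 275 and 317 (-0.52 ± 0.12, adjusted p = 0.00294).

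Mrps33, a small mitochondria-specific protein, read 1601, 1751 and 1575 in fresh, 2060, 1826 and 1756 in incubated and 1288, 1346 and 1386 in dexamethasone arrays. Dexamethasone arrays were the lowest of the 9, and the log2 change against incubation was -0.48 ± 0.07 (adjusted p = 9.29e-05). Mrps28, which takes the place of bacterial S1, fell by 0.45 ± 0.08 on the log2 scale (2060 to 1501), Mrpl34 by 0.42 ± 0.08 (846 to 628) and Mrpl11 by 0.40 ± 0.06 (2213 to 1667). For Mrpl11 both other probe sets also fell, by 0.42 ± 0.06 and 0.61 ± 0.09 on the log2 scale. Mrps25 fell by 0.39 ± 0.11 (1546 to 1172), and Mrpl14, at whose surface the assembly factor Malsu1 keeps the subunits apart, by 0.38 ± 0.07 (776 to 589). The second Mrps25 probe set was not called with dexamethasone (-0.11 ± 0.09).

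The 2 genes that rose with dexamethasone were both of bacterial origin and of the large subunit. Mrpl9 read 2229, 2038 and 2049 in fresh, 2077, 2446 and 2025 in incubated and 3123, 3437 and 3257 in dexamethasone arrays. Fresh and incubated arrays overlapped, and the dexamethasone arrays stood above both. The log2 change was 0.58 ± 0.07 (adjusted p = 2.93e-05), and a second probe set of Mrpl9 gave 0.47 ± 0.07 (adjusted p = 1.04e-04). Mrpl47, a protein beside the exit tunnel, read 2008, 1827 and 1521 in incubated and 2198, 2108 and 2203 in dexamethasone arrays. The incubated arrays were spread wide, and the change was 0.29 ± 0.08 (adjusted p = 0.0117). Both calls depended on the scaling: on the hybridization controls Mrpl9 gave 0.16 (adjusted p = 0.0572) and Mrpl47 -0.13 (adjusted p = 0.166).

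**Figure D4:**
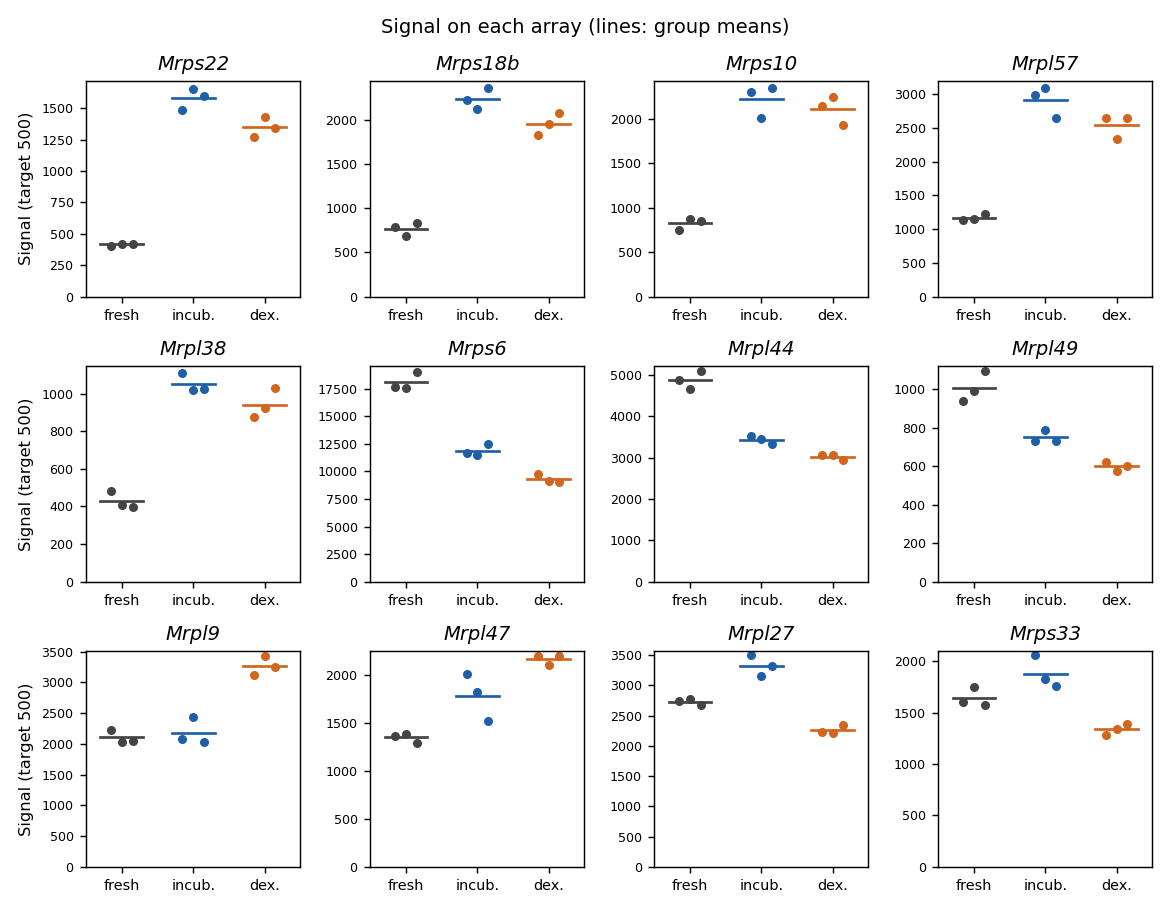
Signal on each array (linear scale from 0, arrays scaled to a target of 500) for 12 genes, with lines at the group means of 3 arrays. Mrps22 goes from a mean of 415 in fresh to 1580 in incubated arrays, Mrps6 steps down from 18084 to 11880 and 9283, Mrpl9 is apart only in dexamethasone arrays at 3272, and Mrpl27 is lowest there at 2260.

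Set against fresh tissue, the dexamethasone arrays had 54 members higher, 8 lower and 14 not called (71.1% higher, beside 35.4% of all tested genes, and 10.5% lower, beside 42.7%). The median was 0.46, and -0.07 over all tested genes. This comparison shares arrays with both others. The largest rises were those of Mrps22 (1.63 ± 0.07), Mrps10 (1.32 ± 0.08) and Mrps18b (1.32 ± 0.08). The genes lower than in fresh tissue were Mrps6 (-0.96 ± 0.05), Mrpl49 (-0.72 ± 0.07), Mrpl44 (-0.68 ± 0.05), Mrps33 (-0.29 ± 0.07), Mrpl27 (-0.27 ± 0.05), Mrps12 (-0.18 ± 0.06), Mrpl24 (-0.14 ± 0.05) and Mrpl58 (-0.13 ± 0.05). Mrps12 is a decoding protein, Mrpl24 lies at the exit tunnel, and Mrpl58 releases chains from stalled ribosomes. Without array A of the fresh or of the dexamethasone group, the last 3 missed the threshold and 5 genes were lower. Of the 40 other tested probe sets, 14 moved in the same direction as the one used and 4 in the opposite direction. The remaining 22 lacked a call on 1 side or both. The 4 belonged to Mrpl1, Mrpl3, Mrpl41 and Mrpl49, that of Mrpl49 rising by 0.71 ± 0.13. Both others of Mrpl44 were not called (-0.037 and -0.045), and that of Mrps6 also fell (-1.125 ± 0.08). Among the 22, probe sets of Mrpl13, Mrpl50 and Mrps9 were called higher and of Mrpl11 and Mrpl48 lower.

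The scale of the arrays bears on all these signs. The hybridization controls are RNAs added in fixed amounts at hybridization, after extraction and amplification, so they do not measure RNA content of the tissue. Scaling on them moved the median of all tested genes by 0.33 for incubation, -0.40 for dexamethasone against incubation and -0.07 for dexamethasone against fresh. It changed the split over all genes to 55.2% higher and 24.2% lower on incubation and to 5.18% higher and 74.0% lower with dexamethasone. Members called higher and lower became 96.1% and 2.63% on incubation, and 0 and 94.7% with dexamethasone. For dexamethasone against fresh they went from 71.1% and 10.5% to 60.5% and 14.5%. Mrpl11, Mrpl48 and Mrps31 were then also called lower than in fresh tissue. Relative to the median of all genes the members hardly moved: they stood 0.58 above it on incubation by the deposited scale and 0.59 by the controls, and 0.13 and 0.15 below it with dexamethasone. In those terms 72 of 76 members lay above the median gene on incubation under either scale, and 17 and 16 of 76 with dexamethasone. The scaling divides each array by a single factor and shifts all genes nearly alike. These relative values were therefore nearly fixed in advance and are no check of the result.

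Genes measured on the same arrays that work beside the mitochondrial ribosome were described by lists. Beside them, 36.1% of all tested genes rose and 40.7% fell on incubation, and 22.3% rose and 28.7% fell with dexamethasone. No list was tested against these shares. Cytosolic ribosomal protein genes, of which 45 were tested, rose on incubation in 30 cases and fell in 3 (median 0.25). With dexamethasone 18 were higher and none lower (median 0.12), a direction that flipped on the hybridization controls, where 40 were lower (median -0.30). Of 76 genes of the respiratory chain and ATP synthase, whose core subunits the mitochondrial ribosome makes, 44 rose and 13 fell on incubation (median 0.18). With dexamethasone 30 of them were lower and 5 higher (median -0.10). On the hybridization controls 67 rose and 6 fell on incubation, and 74 were lower and 0 higher with dexamethasone (median -0.50). The mitochondrial ribosomal genes thus had the higher median of the 3 groups on incubation and the lower one with dexamethasone, differences that were not tested.

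Ribosomal proteins that go by other names were few. Chchd1, a small subunit protein, rose from a mean of 1783 to 3811 on incubation (1.08 ± 0.05, adjusted p = 1.08e-09). Dap3, the GTP-binding protein of the small subunit, rose by 0.24 ± 0.06 and fell by 0.24 ± 0.06 with dexamethasone on the log2 scale, and Ptcd3 was lower on incubation by the deposited scale (-0.25 ± 0.08) but at 0.08 by the controls. Gadd45gip1 of the large subunit, under the floor in fresh tissue at 161, reached 404 after incubation, at least 2.02-fold higher.

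Of 9 translation factors 4 rose and 1 fell on incubation, and 4 fell and none rose with dexamethasone. Gfm1, the elongation factor that moves the ribosome along the message, went from 842 to 1486 and back to 1052 (0.80 ± 0.07 and -0.49 ± 0.07). Tufm, which brings charged tRNAs, went from 960 to 1499 and 1258. Among 19 genes for ribosome assembly and modification of its RNA, 10 rose and 4 fell on incubation. With dexamethasone 5 of them fell, near the 28.7% over all tested genes. Malsu1 rose by 1.27 ± 0.06 (512 to 1275) and fell by 0.28 ± 0.06 on the log2 scale with dexamethasone, and Fastkd2 rose by 0.56 ± 0.06. Of 13 mitochondrial aminoacyl-tRNA synthetases 7 rose and 3 fell, and 6 fell with dexamethasone. Yars2, which charges tyrosine, went from 173, under the floor, to 543, at least 2.71-fold higher, and Hars2, which charges histidine, from 408 to 288 (-0.46 ± 0.10, not called by the controls).

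**Figure D5:**
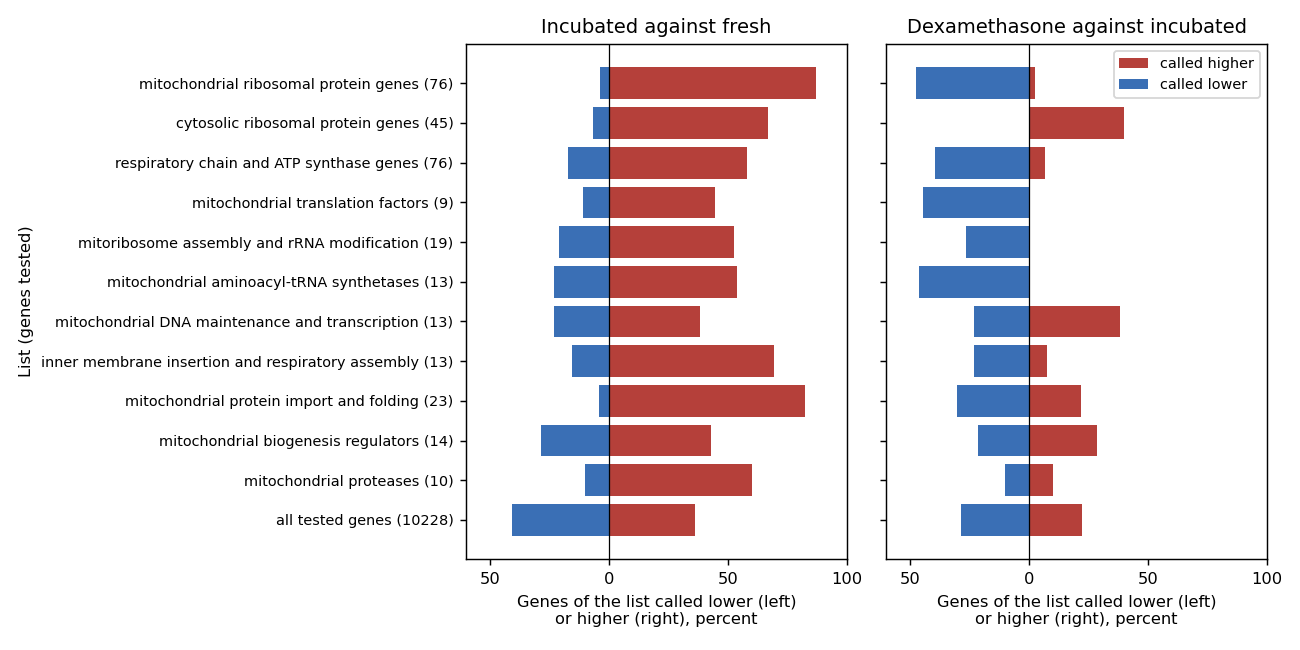
Percent of the tested genes of each list called higher (red, to the right) or lower (blue, to the left) on incubation and with dexamethasone, with the number tested in brackets. The mitochondrial ribosomal genes have 66 of 76 to the right on incubation and 36 of 76 to the left with dexamethasone. The cytosolic ribosomal genes, 18 of 45 to the right with dexamethasone, turned to 40 of 45 lower when arrays were scaled on the hybridization controls.

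Protein import and folding was the list closest to the ribosomal genes on incubation, with 19 of 23 genes higher and 1 lower (median 0.68). Timm8a1, a chaperone of the intermembrane space, went from 837 to 2320 (1.43 ± 0.06) and Hspa9, the motor of import into the matrix, from 4967 to 10246 (1.04 ± 0.05). With dexamethasone 7 of the 23 were lower and 5 higher, near the 28.7% and 22.3% over all tested genes. Pmpcb, a subunit of the protease that removes import signals, fell from 4239 to 3015 (-0.49 ± 0.06). For insertion into the inner membrane and respiratory assembly 9 of 13 rose and 2 fell on incubation, among them Cox18 (471 to 997, 1.03 ± 0.06) and Ndufaf4 (861 to 1844, 1.07 ± 0.07). Of 10 proteases 6 rose and 1 fell, with Lonp1 at 1526 and 3331 (1.10 ± 0.08).

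Maintenance and transcription of mitochondrial DNA moved less, with 5 of 13 genes higher and 3 lower on incubation (median 0.07). The share higher lay near the 36.1% over all tested genes. The partners Slirp and Lrpprc, which stabilise mitochondrial messages, rose by 0.78 ± 0.05 and 0.83 ± 0.07. Tfam, which packages and transcribes mitochondrial DNA, was not called on incubation (1328 and 1357). With dexamethasone it fell to 884, by 0.60 ± 0.07 on the log2 scale (adjusted p = 2.68e-05).

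The regulators of mitochondrial biogenesis split. On incubation 6 of 14 rose and 4 fell. Ppargc1a, the coactivator best known for driving it, read 1677 in fresh and 551 in incubated tissue (-1.55 ± 0.08, adjusted p = 2.31e-09). Esrrg, an orphan receptor that Ppargc1a works with, fell from 447 to under the floor, at least 2.24-fold lower. Esrrg was also counted among the strial marginal markers above, all 6 of which were lower on incubation. The part of cell makeup in its fall was not tested. Pprc1, a relative of Ppargc1a, went from 432 to 1310 (1.53 ± 0.07, adjusted p = 4.61e-10), and Myc, a transcription factor of growing cells, from under the floor at 38.7 to 787, at least 3.93-fold higher. Yy1, whose motif was counted above, rose by 0.35 ± 0.05 on incubation and fell by 0.50 ± 0.05 on the log2 scale with dexamethasone. Sp1, which binds the GC box, rose with dexamethasone by 0.42 ± 0.05 on the deposited scale and was not called by the controls. Over all 118 tested genes of these lists, 69 rose and 20 fell on incubation (median 0.33). With dexamethasone 17 rose and 33 fell (median -0.03), the falls near the 28.7% over all tested genes. On the hybridization controls 3 were lower on incubation, and with dexamethasone 1 was higher and 91 were lower, so the falls on incubation and the rises with dexamethasone in these lists were mostly lost under that scaling.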

How the data were processed

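Extraction used an RNeasy Micro kit and labelling ran through 2 cycles of in vitro transcription, per the labels, an amplification that favours 3′ ends. For each probe set the authors deposited a linear intensity, scaled to a target of 500 with a factor of 1, per the labels. The software that made these signals is not given in the sources used here. Of 45101 probe sets, 64 controls were left out and 18913 passed the floor. The log2 of signal plus 32 was modelled in limma 3.58.1 under R 4.3.3, with a mean for every group, all 9 arrays together, and moderated variances that follow intensity. Benjamini-Hochberg adjustment ran over the tested probe sets of a comparison, with a threshold of 0.05. The fit was tested on simulated data.

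Symbols came from the platform annotation. Probe sets that may hybridize to several transcripts stood for 10 members (Mrpl9, Mrpl15, Mrpl19, Mrpl28, Mrpl37, Mrpl38, Mrpl48, Mrps6, Mrps12 and Mrps24). Named were the 8 largest rises and falls of called members without overlap in each comparison, members with opposed probe sets, the Mrps18 versions, the 5 highest and 3 lowest fresh signals, and up to 4 genes of a pathway list by adjusted p. The members missing the threshold on incubation were named after their values were seen. A fold against a group under 200 is a bound, the other group's mean over 200. A gene with such a group passed the floor only through the other groups, which favoured a call between them. The members, gene lists and motifs were chosen with earlier results of these data known. Same-lettered arrays did not deviate together (correlations of -0.06 to 0.16), and the letters were not used as pairs. The number of arrays limits the precision, and alternatives are given at the end.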

Additional observations from a re-analysis of the deposited data

How the results depend on the processing

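Alternatives were quantile normalization, median centring, scaling on the hybridization controls, pseudocounts of 1 and 100, floors of 100 and 400 or none, no intensity trend, 2 groups alone, the mean over probe sets, no probe sets ending in _s_at or _x_at, each array left out, and a replicate block on the array letters. With the replicate block, 65 members were higher and 3 lower on incubation, 2 and 35 with dexamethasone, and 54 and 8 for dexamethasone against fresh, and no named member changed its call. The median member change on incubation was 0.593 with median centring, 0.882 with the controls and 0.477 with the mean over probe sets. With dexamethasone the controls gave 0 members higher in limma, 72 lower and a median of -0.579, and the mean over probe sets gave 4 higher. Against fresh, dexamethasone medians were 0.387 with the controls and 0.380 with the mean over probe sets, and members lower were 5 with median centring and 5 to 8 with an array left out. For the pathway genes the median on incubation was 0.400 with quantile normalization, 0.383 with centring and 0.665 with the controls, under which 3 were lower. Their values with dexamethasone under the controls were 1 higher, 91 lower and a median of -0.446, and 0.196 against fresh. Reversals were Mrpl38 on incubation (-0.112 without such probe sets), Mrpl49 (0.196), Mrpl48 (-0.625) on incubation and Mrpl41 in dexamethasone against fresh (-0.063) with the mean over probe sets, and Mrpl47 with dexamethasone (-0.130 with the controls). The reversals with the mean over probe sets follow from averaging opposed probe sets, and the controls shift all genes by construction. The other causes were not tested. Of the other results for single genes, 945 kept their direction and call and 33 lost the call. Chips of pooled tissue limit what can be said of animals.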
